A study of Homo sapiens with 12 samples.

Results

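The metallothionein genes MT2A, MT1E, MT1F, MT1G and MT1X, the gene of the metal-responsive transcription factor MTF1 and the zinc exporter gene SLC30A1 were examined in SH-SY5Y cells. These 7 genes were taken by symbol from the 60710 genes of the count table, and all 7 were tested. SH-SY5Y is a human neuroblastoma line that is used as a model of neurons. RNA was measured in 12 libraries in 4 groups of 3. The groups were treated with HPPE, zinc protoporphyrin or tin protoporphyrin at a dose of 5 µM, or with DMSO, the solvent, as the control. Every well held 2 mL of medium, received 10 µL of solution in DMSO or of DMSO itself, and was lysed after 5 h. Zinc and tin protoporphyrin share the ring of heme and differ in the metal that it holds; HPPE is not spelled out in the labels. The labels do not say whether the libraries of a group came from separate cultures, so the p-values measure the spread between these samples, which may be technical. HPPE replicates 2 and 3 differed by little more than counting error (chi-square per degree of freedom 1.11, against 1.45 to 16.8 for the other pairs within groups), so the comparisons were repeated with these 2 summed to 1 sample.

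Metallothioneins are small cysteine-rich proteins that bind zinc, copper and cadmium and buffer the free metal of the cytosol. MTF1 senses free zinc through its zinc fingers, enters the nucleus and binds metal response elements in the promoters of the metallothionein genes and of SLC30A1, whose product moves zinc out of the cell. The metallothionein genes also answer to other stresses, oxidants among them.

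Total counts ran from 1337028 to 9145399 per library, and 3 libraries were shallow. DMSO control replicate 3 held 1514595 counts, HPPE replicate 3 held 3141853 and zinc protoporphyrin replicate 1 held 1337028. A count of 3, taken as the floor for counting error only, stood for 0.328 CPM in the deepest library and 2.24 CPM in the shallowest (CPM, counts scaled to a library of 1000000). Of 13 markers of noradrenergic neuroblastoma, 12 reached 10 CPM and TH did not pass 0.25 CPM in any library. The summed fibroblast markers COL1A1, COL3A1, DCN and LUM lay between 287.9 and 369.1 CPM in all 12 libraries, and the summed blood markers PTPRC, CD68 and HBB did not pass 0.317 CPM. Libraries of the same group also differed by a trend on transcript length. Across 10952 genes, which are not independent, transcript length correlated with how far a library lay from each gene's mean at a Spearman rho of -0.54 in tin protoporphyrin replicate 1 up to 0.57 in zinc protoporphyrin replicate 3. In RNA from whole wells, fewer responding cells and less RNA per cell cannot be told apart.

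The promoters are shown because metal response elements are the known route from MTF1 to these genes. RefSeq sequences (GRCh38.p14) of the 250 bases before the RefSeq start were found for 4 of the 7 genes, MT2A, MT1X, SLC30A1 and MTF1, and for 3 of the 16 other listed metallothionein genes, MT1B, MT1H and MT4. The core of the metal response element was searched on both strands as TGCACNC and TGCGCNC, and overlapping matches were merged. Capitals mark the matches. The windows are chr16:56608334-56608583 (plus strand) for MT2A, chr16:56682220-56682469 (plus strand) for MT1X, chr1:211579162-211579411 (minus strand) for SLC30A1 and chr16:56669564-56669813 (plus strand) for MT1H, a copy that was close to silent in these cells. The gene positions given with the results are from GENCODE 29, whose outermost starts differ. The RefSeq start lies 385 bases inside the GENCODE gene for MT2A, 46 inside for MT1X and 28 inside for MTF1, and 419 bases before it for SLC30A1.
MT2A: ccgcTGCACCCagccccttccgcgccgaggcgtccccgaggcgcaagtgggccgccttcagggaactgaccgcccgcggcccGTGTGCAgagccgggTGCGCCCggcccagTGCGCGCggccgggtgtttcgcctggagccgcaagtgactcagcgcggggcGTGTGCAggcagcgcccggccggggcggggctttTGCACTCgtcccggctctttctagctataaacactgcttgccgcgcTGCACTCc
MT1X: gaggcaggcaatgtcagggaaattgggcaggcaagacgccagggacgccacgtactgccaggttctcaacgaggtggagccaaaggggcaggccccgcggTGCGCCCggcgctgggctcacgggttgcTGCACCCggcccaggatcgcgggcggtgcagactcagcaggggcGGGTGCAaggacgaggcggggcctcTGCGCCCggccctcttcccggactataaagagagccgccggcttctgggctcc
SLC30A1: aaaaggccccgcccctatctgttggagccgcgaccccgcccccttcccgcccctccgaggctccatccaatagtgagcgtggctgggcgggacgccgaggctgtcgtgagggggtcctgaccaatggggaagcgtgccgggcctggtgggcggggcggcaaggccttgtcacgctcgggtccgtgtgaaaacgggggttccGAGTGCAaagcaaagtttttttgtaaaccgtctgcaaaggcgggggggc
MT1H: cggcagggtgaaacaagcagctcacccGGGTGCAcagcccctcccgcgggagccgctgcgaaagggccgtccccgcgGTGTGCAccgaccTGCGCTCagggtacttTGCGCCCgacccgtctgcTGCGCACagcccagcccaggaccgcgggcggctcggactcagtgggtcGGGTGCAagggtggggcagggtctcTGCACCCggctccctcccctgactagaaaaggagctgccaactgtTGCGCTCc

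MT2A held 7 matches, MT1X 4, SLC30A1 1 and MTF1 0. Of all 35116 promoter windows of this length, 24.8% held at least 1 match, 0.208% at least 4 and 0.0228% at least 7. The near-silent copies held matches as well, 8 in MT1H and 3 each in MT1B and MT4, so the number of matches did not sort the copies that were counted from those that were not. The core TGACNNNGC of the antioxidant response element, which NRF2 binds, had 1 match each in MT2A, MT1X, SLC30A1 and MT1B and none in MTF1, MT1H or MT4, against at least 1 match in 10.9% of all windows. In MT2A this match overlaps TGACTCA, the site of AP-1 factors, which 4.2% of all windows hold. A match describes the letters and is no evidence of binding.

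**Figure D1:**
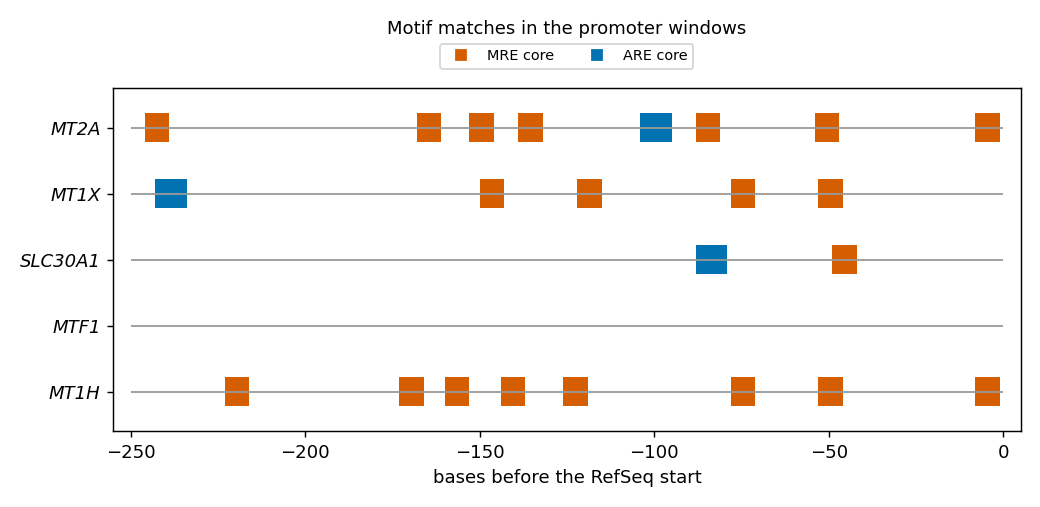
Matches to the cores of the metal response element (MRE, orange) and the antioxidant response element (ARE, blue) by their distance in bases before the RefSeq start, 1 line per gene. MT2A and MT1H, a counted and a near-silent copy, carry 7 and 8 MRE matches, SLC30A1 carries 1 and MTF1 none of either kind.

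All 5 metallothionein genes and SLC30A1 were higher with HPPE than in the control. Of the 7 genes, 6 were higher than in the DMSO control and 0 lower at an adjusted p under 0.05, the threshold for a call used throughout, in edgeR's quasi-likelihood test with Benjamini-Hochberg adjustment over 16366 genes. The background was 2.57% of all genes called higher and 1.47% lower. The same 6 genes had no overlap between the HPPE and control libraries, against 11.9% of all genes without overlap on the higher side and 9.44% on the lower. MT1E and MT1G passed the filter on low counts only through the HPPE libraries, and MT1F did not pass it when the control was filtered with either protoporphyrin alone, so the count of 6 is a description and not support. With no filter 6 of the 7 were also called. That fit gave MT2A an edgeR adjusted p of 4.12e-27 at a log2 fold change of 2.76. The main fit gave 0.000156 at 2.77. The p-values of the 2 fits are not comparable, so the calls with no filter are not support either. With HPPE replicates 2 and 3 summed 6 were called.

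MT2A (ENSG00000125148.7, chr16:56608199-56609497), the main metallothionein gene of most human cells, gave 17, 16 and 10 counts in the DMSO control libraries and 112, 147 and 82 with HPPE. As normalised counts these were 2.25, 2.11 and 6.38 CPM in the control and 14.0, 17.1 and 25.96 CPM with HPPE, so every HPPE library lay above every control library. Replicate 3, the shallow library, was the highest in both groups. The log2 fold change was 2.77 ± 0.36 (SE), a 6.81-fold increase (95% interval 4.03 to 11.5, edgeR adjusted p 0.000156).

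MT1E, MT1F and MT1X encode further isoforms of metallothionein 1. MT1E (ENSG00000169715.15, chr16:56625475-56627112) rose from 4, 3 and 0 counts to 37, 69 and 29, a log2 fold change of 4.01 ± 0.55 (edgeR adjusted p 0.000246). MT1F (ENSG00000198417.7, chr16:56657694-56660698) rose from 2, 3 and 5 counts to 33, 56 and 17, a log2 fold change of 3.08 ± 0.52 (adjusted p 0.00192), which was 3.95 without DMSO control replicate 3. The HPPE and control libraries did not overlap in CPM for either gene, although the 5 control counts of MT1F came from the shallow replicate 3, which at 3.19 CPM lay close under the lowest HPPE library at 4.13 CPM. MT1X (ENSG00000187193.9, chr16:56682424-56684196) rose from 0.794, 1.72 and 2.55 CPM to 7.38, 9.90 and 10.8 CPM, with a log2 fold change of 2.7 ± 0.47 (edgeR adjusted p 0.00244). Its libraries did not overlap either.

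MT1G (ENSG00000125144.14, chr16:56666731-56668065) lies in the same cluster on the opposite strand. It had 0, 0 and 2 counts in the control and 24, 33 and 9 with HPPE. The pooled counts, 66 against 2, stood in a ratio of 27.9 after scaling for library size, with an exact 95% counting interval of 7.43 to 235. That interval covers counting error only and leaves out the spread between libraries. The edgeR fit, which includes that spread, gave a 23.6-fold increase (95% interval 5.57 to 100). The gene was called (edgeR adjusted p 0.0127), but not without DMSO control replicate 1 (adjusted p 0.141), without DMSO control replicate 2 (0.127) or without HPPE replicate 2 (0.0753). Its log2 fold change was 4.56 in the fit and ran from 3.76 without DMSO control replicate 1 or 2 to 7.54 without DMSO control replicate 3, which held both control counts.

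Because reads of these copies could be divided among them, the 5 genes were also summed. The sum was 3.84, 4.62 and 13.4 CPM in the control libraries and 33.1, 45.4 and 54.1 CPM with HPPE, or 7.29 ± 5.31 against 44.2 ± 10.6 CPM (SD, n = 3). The lowest HPPE library lay above the highest control library. The difference of mean log2 values was 2.81 ± 0.60 (SE), a 7-fold difference of geometric means, and no test was made on the sum. Even with HPPE the 5 genes together took only 0.00331% to 0.00544% of the counts of a library.

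SLC30A1 (ENSG00000170385.10, chr1:211571568-211578742) was measured on far more reads. It stood at 77.7, 67.1 and 55.5 CPM in the control and at 132.7, 119.3 and 115.3 CPM with HPPE, without overlap. The means were 66.7 ± 11.1 and 122.4 ± 9.12 CPM (SD, n = 3), and the log2 fold change was 0.84 ± 0.12, a 1.79-fold increase (95% interval 1.5 to 2.13, edgeR adjusted p 0.000463). In the control and with HPPE alike, replicate 3 was the lowest for SLC30A1 and the highest for MT2A.

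MTF1 (ENSG00000188786.10, chr1:37809567-37859620), the factor upstream of these genes, was not called. It stood at 63.8, 62.0 and 47.9 CPM in the control and at 52.0, 50.1 and 45.0 CPM with HPPE, and the ranges overlapped. The log2 fold change was -0.27 with a 95% interval from -0.54 to -0.01 (edgeR p 0.0425, adjusted p 0.263). With a term for the main axis of variation within groups the value was -0.21 and the adjusted p 0.0494. The other 20 of 21 alternative fits made no call, and the length and GC correction gave -0.17 (adjusted p 0.236).

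**Figure D2:**
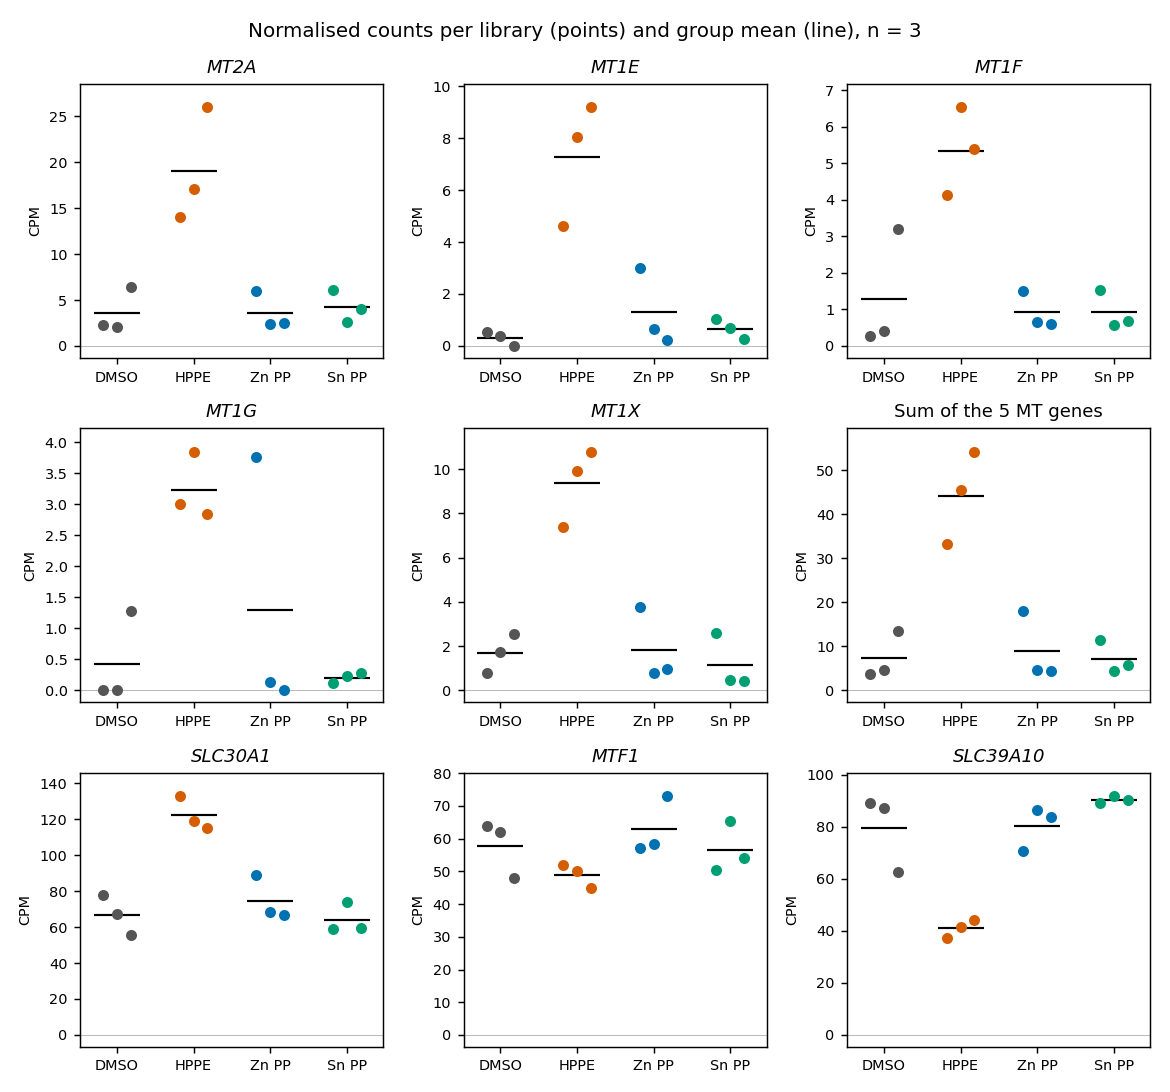
Normalised counts (CPM) in each library of the 7 genes, the sum of the 5 metallothionein genes and the zinc importer gene SLC39A10; points are libraries in the order of their replicate number and lines are group means, n = 3. With HPPE the metallothionein genes and SLC30A1 stand above the control, MTF1 overlaps it, and SLC39A10 stands below it.

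Zinc protoporphyrin, which carries zinc, gave no call among the 7 genes against the DMSO control (0 of 7, with 1.84% of all genes called higher and 0.415% lower). The smallest edgeR p among them was 0.38 (adjusted 0.658), so 0 passed unadjusted, and DESeq2 called 0 of the 6 to which it gave an adjusted p. In 0 of the 7 did the libraries fail to overlap, against 11.6% of all genes on the higher side and 10.4% on the lower. MT2A stood at 6.02, 2.36 and 2.53 CPM with zinc protoporphyrin, a range that overlapped the control, and its fold was 1.05 with a 95% interval of 0.513 to 2.15. The metallothionein sum was 18.1, 4.58 and 4.33 CPM, a mean of 8.99 ± 7.86 CPM (SD, n = 3) against 7.29 ± 5.31 in the control. The high value was that of replicate 1, the shallowest library, where it rested on 24 counts. The difference of mean log2 sums was 0.20 ± 0.88 (SE), and it was -0.48 without that library and 0.75 without DMSO control replicate 3. For MT1G, 5 of the 6 counts of the group came from replicate 1.

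SLC30A1 was more precisely measured under zinc protoporphyrin, at 88.8, 68.4 and 66.6 CPM. These values overlapped the control libraries. The fold was 1.04 (95% interval 0.864 to 1.26, edgeR adjusted p 0.836). An increase of the size seen with HPPE, 1.79-fold, lay outside this interval, as did the 6.81-fold increase of MT2A outside the interval of MT2A under zinc protoporphyrin. The interval of MT1G, 0.263 to 28.0, was too wide to set any such limit. MTF1 stood at 57.2, 58.5 and 72.9 CPM (fold 1.07, 0.892 to 1.29, adjusted p 0.699).

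Tin protoporphyrin gave no call either (0 of 7, with 1.9% of all genes called higher and 0.379% lower, 2.28% in all). The smallest edgeR p was 0.128 (adjusted 0.501), so 0 passed unadjusted, and DESeq2 called 0. All 7 genes overlapped the control, against 10.3% of all genes without overlap on the higher side and 7.6% on the lower. MT2A stood at 6.1, 2.59 and 4.04 CPM, and its fold was 1.6 (95% interval 0.861 to 2.97, edgeR adjusted p 0.501). The metallothionein sum was 11.4, 4.50 and 5.71 CPM, a mean of 7.19 ± 3.67 CPM (SD, n = 3). Here the high library was replicate 1, which held 8329735 counts and had the lowest length correlation of all, -0.54. SLC30A1 stood at 59.2, 73.9 and 59.4 CPM (fold 0.934, 0.781 to 1.12, adjusted p 0.778) and MTF1 at 50.5, 65.4 and 54.0 CPM (fold 0.948, 0.794 to 1.13, adjusted p 0.835). The 3 comparisons with DMSO share the same control libraries.

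**Figure D3:**
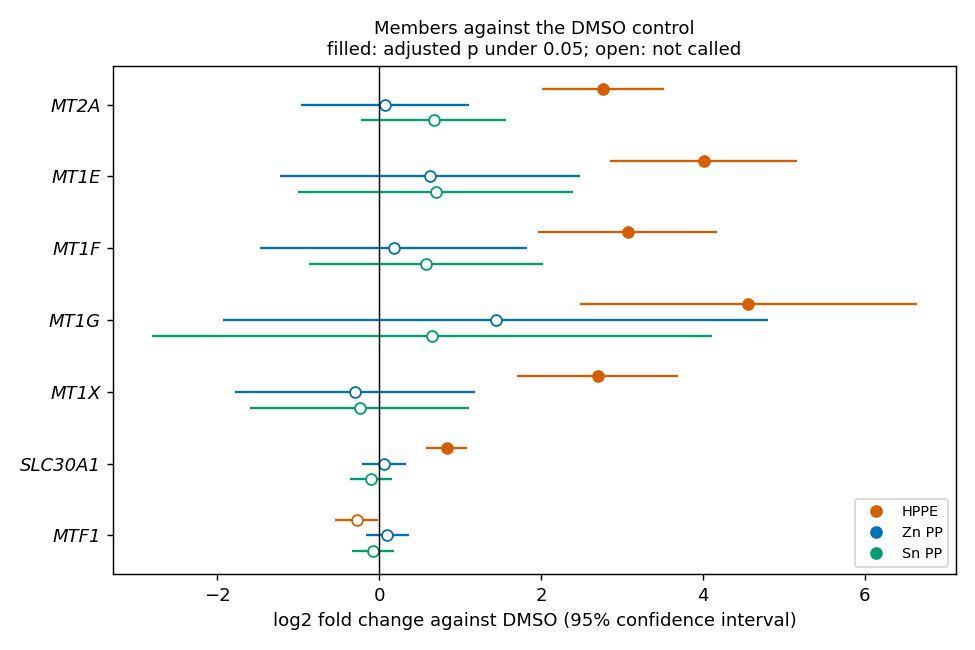
Log2 fold change of each gene against the DMSO control for the 3 compounds, with the 95% confidence interval; filled points were called at an adjusted p under 0.05 and open points were not. With HPPE the 5 metallothionein genes lie between 2.7 and 4.56 and SLC30A1 at 0.84, while all intervals for zinc and tin protoporphyrin include 0; the plotted value of MT1G depends on how its near-zero control counts were handled in the fit.

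The compounds were also set against each other at the same dose and time, in 3 pairs, with p-values adjusted over all genes within each pair and not across pairs. HPPE exceeded zinc protoporphyrin in 6 of the 7 genes (background 6.44% called higher and 6.26% lower) and tin protoporphyrin also in 6 (background 0.745% higher and 0.709% lower, 1.45% in all). In both pairs these were the 5 metallothionein genes and SLC30A1. MT1E and MT1G passed the filter only through the HPPE libraries here too, so both counts of 6 are a description and not support. Libraries did not overlap in 5 of these 6 genes and in MTF1 against zinc protoporphyrin (19% of all genes higher and 17.7% lower), and in all 6 against tin protoporphyrin (9.81% higher and 10.1% lower). For MT2A the log2 difference was 2.7 ± 0.35 from zinc protoporphyrin (edgeR adjusted p 0.000366) and 2.09 ± 0.30 from tin protoporphyrin (0.000708). For SLC30A1 it was 0.78 ± 0.12 (0.00164) and 0.93 ± 0.12 (0.000245). MT1G overlapped between the HPPE and zinc protoporphyrin libraries, since zinc protoporphyrin replicate 1 reached 3.77 CPM on 5 counts, and its call there (adjusted p 0.0233) was lost in 6 of 20 alternative fits, as it was against tin protoporphyrin (adjusted p 0.0151). Without single libraries the log2 difference of MT1G from zinc protoporphyrin, 3.12, was 5.37 (without replicate 1 of that group), 2.52 (replicate 2) or 2.18 (replicate 3). That of MT1E, 3.38, was 2.73 without zinc protoporphyrin replicate 3, and that of MT1X from tin protoporphyrin, 2.94, was 4.32 without tin protoporphyrin replicate 1. With HPPE replicates 2 and 3 summed the call of MT1G against zinc protoporphyrin was lost (0.0592). MT1F lost its call without zinc protoporphyrin replicate 3 (0.0514) and, against tin protoporphyrin, without HPPE replicate 2 (0.0657).

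Between the zinc and the tin compound no difference was detectable in the 7 genes (0 of 7, with 1 of 16366 genes called, or 0.00611%). The smallest edgeR p was 0.159 (adjusted 0.511), so 0 passed unadjusted, and DESeq2 called 0. All 7 overlapped, against 6.56% of all genes without overlap on the higher side and 6.38% on the lower. For SLC30A1 zinc protoporphyrin was 1.12-fold of tin protoporphyrin with a 95% interval of 0.931 to 1.34, and for MTF1 1.13-fold (0.948 to 1.35). For MT2A the value was 0.657-fold with an interval of 0.358 to 1.21. The metallothionein 1 genes were counted on 5 to 29 reads per group, and their intervals were wide, from 0.253 to 11.7 for MT1G. These intervals bound the difference and do not show that the metals act alike.

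MTF1 was 62.9 ± 8.71 CPM with zinc protoporphyrin and 49.0 ± 3.65 CPM with HPPE (SD, n = 3), and these libraries did not overlap. The log2 difference of HPPE from zinc protoporphyrin was -0.37 ± 0.12 (edgeR adjusted p 0.0561), and 6 of 21 alternative fits called it. This comparison carried the length trend more than any other, with library correlations of -0.1, -0.47 and -0.45 for HPPE and 0.22, 0.38 and 0.57 for zinc protoporphyrin. MTF1 is a long transcript of 7972 bases. With the length and GC correction the difference was -0.17 (edgeR adjusted p 0.151), and with the library axis as a term it was -0.35 (8.5e-05). Whether the length trend accounts for the difference was not tested.

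The level of the metallothionein genes moved with measures of the library inside each group. Among the 9 libraries without HPPE, the sum was 11.4 to 18.1 CPM in 3, namely DMSO control replicate 3, zinc protoporphyrin replicate 1 and tin protoporphyrin replicate 1, and 3.84 to 5.71 CPM in the other 6. The first 2 of these 3 were the shallowest libraries, and the length correlation was -0.46, 0.22 and -0.54 in turn. All HPPE libraries lay above all 9. With the 3 shallow libraries left out, an alternative chosen after seeing the data, the difference of HPPE from the control in the log2 sum was 3.2, MT2A changed by 2.83 (edgeR adjusted p 0.00048), SLC30A1 by 0.8 (0.0045), and 6 of 7 genes were called. With the correction for length and GC content MT2A changed by 2.64 (4.33e-05) and MT1X by 2.57 (0.00127).

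**Figure D4:**
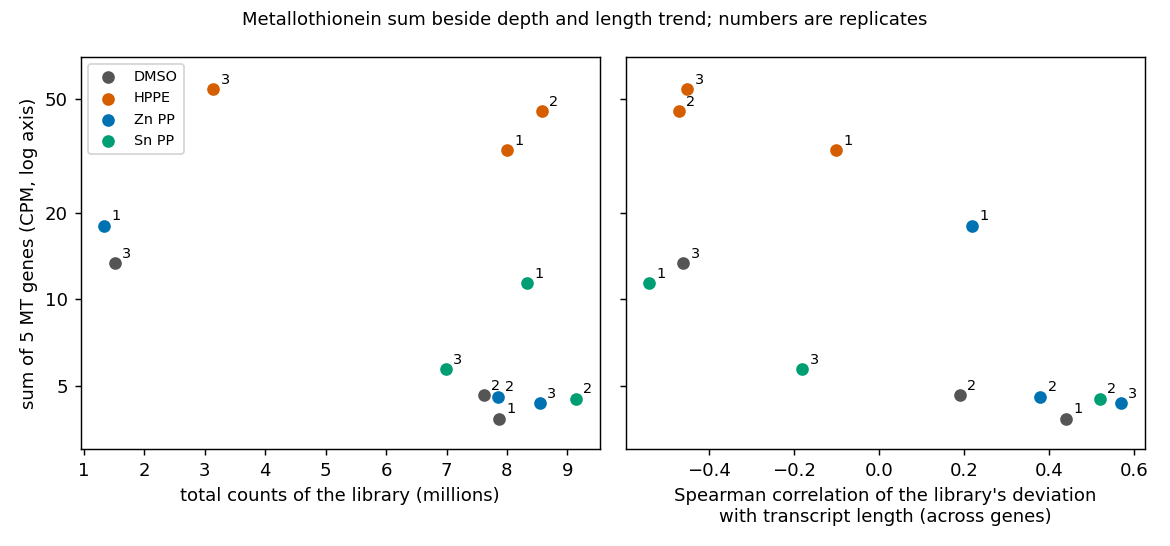
Sum of the 5 metallothionein genes (CPM, log axis) in each library against its total counts (left) and against its Spearman correlation with transcript length (right); colours are groups and numbers are replicates. The 3 HPPE libraries, at 33.1 to 54.1 CPM, lie above all others. None of the 3 was as shallow as the 2 shallowest libraries, which with tin protoporphyrin replicate 1 are the highest of the others.

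Between genes, levels can be compared only per transcript length. Per 1000 bases of the longest coding transcript, SLC30A1 stood at 12.2 CPM in the control, MTF1 at 7.26 and MT2A at 4.56. On these lengths the exporter transcript ranked above that of MT2A in the control. With HPPE the values were 24.2 for MT2A and 22.4 for SLC30A1. MT1X followed with 17.4, then MT1E with 9.99, MT1F with 7.75, MTF1 with 6.15 and MT1G with 5.15. Neighbours in this order lay within 1 SD of each other, scaled in the same way, except SLC30A1 with MT1X and MT1X with MT1E. The order in both groups depends on the transcript chosen. The RefSeq start of MT2A lies 385 bases inside its GENCODE gene, and a shorter transcript would give MT2A a higher value.

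MT2A made up the largest share of the 5 in every group. It gave 50.6% of their counts in the control (43 of 85, exact 95% interval 39.5 to 61.6%) and 41.3% with HPPE (341 of 826, 37.9 to 44.7%). MT1E gave 8.24% in the control (3.38 to 16.2%) and 16.3% with HPPE (13.9 to 19.0%). The intervals of the control and HPPE overlapped for each of the 5 genes. They cover counting error of reads pooled over libraries, and their overlap is no test. Whether the make-up of the sum changed was therefore not decided. Against tin protoporphyrin, where MT2A gave 58.4% (104 of 178, 50.8 to 65.8%), the share with HPPE was lower beyond counting error, at 42.7 ± 5.16% against 60.6 ± 8.96% over libraries (SD, n = 3).

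The other metallothionein genes were close to silent. None of the 16 passed the filter on low counts, 10 had no count in any library, and no library held more than 3 counts of any. MT3, the metallothionein best known from brain, and MT4 were among those at 0, which in the deepest library allows up to 0.328 CPM. MT1H had 1, 2 and 1 counts with HPPE and none in the other 9 libraries, and MT1M had 0, 3 and 2 with HPPE. These numbers are at or under the floor of 3 counts and carry no fold.

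How far reads could be shared was measured on GENCODE 29 transcripts. Of the windows of 100 bases in the longest coding transcript of MT2A, MT1E, MT1F and MT1G, 0% occurred in a transcript of another gene, and of windows of 50 bases 4.9%, 10.6%, 3.6% and 14.3% did. MT1X was the exception. Its exons overlap AC026461.1 on the same strand, which shared 50.8% of its windows of 100 bases and had 0 counts in all 12 libraries. How reads over 2 genes were treated is not given in the sources used here, so the level of MT1X may be an undercount, while its change between groups rests on the same rule in every library. SLC30A1 shared no window of either length. All these shares hold for the longest coding transcripts only. Some windows of 50 bases of MT2A, MT1F and MT1G occurred in transcripts of MT1X other than its longest coding one.

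Zinc transport was followed in a further list of 36 genes for zinc and copper handling, of which 28 were tested. With HPPE 0 were called higher and 2 lower (background 2.57% and 1.47%), and the median log2 fold change was 0.04, beside 0.02 for all genes. The clearest of them was SLC39A10, a zinc importer at the cell membrane that MTF1 is known to repress in mouse cells given zinc. It fell from 89.2, 87.1 and 62.5 CPM to 37.3, 41.5 and 44.01 CPM, so no library overlapped. The log2 fold change was -1.02 ± 0.11 (edgeR adjusted p 2.34e-05), 0.492 of the control level, and all 21 alternative fits kept the call. HPPE was lower than zinc protoporphyrin by -1.02 ± 0.11 (4.94e-05) and than tin protoporphyrin by -1.15 ± 0.11 (5.04e-06) on the log2 scale, while SLC39A10 was not called with zinc protoporphyrin (fold 0.995, 0.85 to 1.17) or tin protoporphyrin (1.1, 0.942 to 1.27). The 250 bases before its start held 0 matches to the metal response element, which says only that these letters are not in that window.

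SLC30A9, another member of the exporter family, was the second call with HPPE. It fell from 162.4 ± 9.85 to 129.8 ± 1.2 CPM (log2 fold change -0.32 ± 0.08, edgeR adjusted p 0.0267), and 8 of 21 alternative fits lost the call. With tin protoporphyrin SLC30A9 stood at 139.7 CPM, also without overlap with the control, and was not called (-0.21 ± 0.08, adjusted p 0.195). HPPE was not called against zinc protoporphyrin (-0.19 ± 0.08, 0.099) or tin protoporphyrin (-0.11 ± 0.08, 0.581), so the fall was not particular to HPPE. SLC30A5, which loads zinc into the secretory pathway, stood at 75.1 ± 6.04 CPM with HPPE and 59.4 ± 0.938 CPM in the control and was not called (log2 fold change 0.32 ± 0.09, adjusted p 0.0561). It was called against zinc protoporphyrin (0.41 ± 0.09, 0.0139) and against tin protoporphyrin (0.36 ± 0.09, 0.046), the latter in 5 of 21 alternative fits. Against the DMSO control, zinc and tin protoporphyrin each gave 0 calls among the 28. Against zinc protoporphyrin HPPE was also higher in the importer genes SLC39A4 (0.63 ± 0.17, edgeR adjusted p 0.0304) and SLC39A13 (0.67 ± 0.19, 0.0306) and in SOD1, the copper and zinc superoxide dismutase (0.79 ± 0.17, 0.0135), in a comparison where 6.44% of all genes were called higher. SLC39A4, SLC39A13 and SOD1 were not called with HPPE against the DMSO control or tin protoporphyrin, and their calls were not followed in the alternative fits. For SLC39A13 the means were 37.0 CPM with HPPE, 38.1 with tin protoporphyrin, 29.8 in the control and 24.6 with zinc protoporphyrin. None of EP300, CREBBP and SP1, cofactors of MTF1, was called in any comparison.

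The genes whose levels ran most like the metallothionein sum over the 12 libraries, among 11938 genes with a mean of at least 5 CPM, were SERPINH1 (Pearson r 0.971), FTH1 (0.963), NUMBL (0.951), GABARAPL1 (0.949) and YWHAG (0.948). FTH1, the ferritin heavy chain, averaged 222.1 CPM in the control, 434.6 with HPPE, 215.6 with zinc protoporphyrin and 227.2 with tin protoporphyrin. For SLC30A1 they included CLCN3 (0.958), ME1 (0.952), GCLM (0.945) and TXNRD1 (0.941), and no gene stood in both lists. The metallothionein sum and SLC30A1 correlated at 0.75, and the sum and MTF1 at -0.79. These values describe 12 libraries that fall into HPPE and the rest and that share depth and length trends, and they carry no test.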

How the data were processed

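The deposited values are raw counts per gene; reads were handled with fastp 0.21.1, STAR 2.7.7a and featureCounts on GRCh38, per the submitters' processing notes. The annotation, the strand setting and the treatment of reads that map to several genes are not given in the sources used here. Symbols were matched for 60437 of 60710 identifiers. Genes were filtered with filterByExpr (16366 kept, 99.6% of counts), scaled by TMM and tested with edgeR 4.0.16 in R 4.3.3 (glmQLFit, robust, 1 mean per group over all 12 libraries, two-sided glmQLFTest, Benjamini-Hochberg over all genes). Standard errors come from the F statistic, and CPM errors are SD. The procedure was also run on simulated counts with known changes. These had the same spread for every gene and no trend on transcript length, so the run does not cover such trends. Transcript length and GC were read from the longest GENCODE 29 transcript (98.9% of tested genes). As library axis, principal component 1 of the deviations from group means was taken over 10972 genes. Named genes were the 7 members, fixed lists of metallothionein and of zinc and copper genes (those called, with SLC39A10 and SLC30A5), and the 5 genes most correlated with the sum and with SLC30A1, of which 1 is not reported here. Members and lists were chosen with earlier results of these data known. Alternatives were no filter, RLE factors, DESeq2 1.42.0, compared groups only, a replicate block, the library axis, a length and GC correction (lowess, span 0.3), HPPE replicates 2 and 3 summed, and each library left out; leaving out the 3 shallowest libraries was added after seeing the data.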

Additional observations from a re-analysis of the deposited data

How the results depend on the processing

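Of 24 results of single genes that were called, 0 changed direction in 499 alternative fits and 45 fits lost the call, mostly of MT1G and SLC30A5. HPPE called 5 to 7 of the 7 genes against DMSO, 3 to 7 against zinc protoporphyrin and 4 to 6 against tin protoporphyrin. The 3 came from DESeq2, which gave no adjusted p for MT1E, MT1F and MT1G there, nor for MT1G with HPPE against DMSO or tin protoporphyrin, or zinc protoporphyrin against DMSO. Each library left out in turn gave 5 to 6, 4 to 7 and 4 to 6, and 0 in the comparisons without HPPE. Same-numbered libraries showed no steady pairing (correlations of deviations from group means from -0.68 to 0.52, 5 of 18 over 0.1). The library axis held 52.7% of the variance of these deviations, so the correlations cannot decide whether such libraries shared a culture. With the replicate block 6 genes were called against DMSO and 5 against each protoporphyrin. The loss was MT1G (edgeR adjusted p 0.0715 and 0.0649).

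Not every reversal was small. Between the protoporphyrins MT1G, on 2 to 6 counts per group outside HPPE, reached -1.48 without the 3 shallow libraries. MT1X reached 1.32 there without tin protoporphyrin replicate 1. All reversals were of values that were not called. For zinc protoporphyrin against DMSO they were MT1F at -0.07 with DESeq2, MT2A at -0.02 with the replicate block and -0.05 with the library axis, MTF1 at 0 with the length and GC correction, and MT1E at -0.07 and SLC30A1 at -0.1 without the 3 shallow libraries. For tin protoporphyrin MT1G was -0.38 with DESeq2. For zinc against tin protoporphyrin MT1E was 0.23 and MT1X 0.22 with DESeq2, MT1X 0.01 with the block, MT1E 0.11 and MT1X 0.2 with the axis, MT1X 0.11 with the length and GC correction, and MT1G -1.48 without the shallow libraries. The cause was not tested. With single libraries left out, the log2 values against DMSO ran from -0.16 to 0.34 for MT2A, -0.39 to 1.04 for MT1F, -0.8 to 4.42 for MT1G, -0.73 to 0.01 for MT1X, -0.05 to 0.18 for MTF1 and -0.03 to 0.18 for SLC30A1 under zinc protoporphyrin, and from -0.15 to 3.63 for MT1G, -1.63 to 0.18 for MT1X and -0.23 to 0.03 for SLC30A1 under tin protoporphyrin. Between the protoporphyrins they ran from -0.63 to 0.57 for MT1E, -0.68 to 0.16 for MT1F, -1.46 to 1.72 for MT1G and -0.48 to 1.32 for MT1X. For HPPE against DMSO the values ran from 2.54 to 3.04 for MT2A, 3.87 to 4.34 for MT1E, 2.51 to 3.95 for MT1F, 3.76 to 7.54 for MT1G, 2.27 to 3 for MT1X and 0.77 to 0.96 for SLC30A1. The log2 sum ran from 2.46 to 3.36 for HPPE, -0.48 to 0.75 for zinc protoporphyrin and -0.29 to 0.66 for tin protoporphyrin. Low counts limit the metallothionein 1 genes outside HPPE.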
